A study of Mus musculus with 14 samples.

Results

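Tumor-positive cells were compared between lung and blood in mice carrying B16F10 melanoma, a tumor line that arose in C57BL/6 mice. Cells were selected on their measured pigment transcripts, as those of the sorted classes named DP and CTC in which Pmel, Dct, Tyrp1 and Mlana together reached 5000 counts per mega-count of the cell (CPM). Of 648 single cells in the series, 493 were DP or CTC cells of the 9 tumor-bearing samples, and 304 of these met the rule, 88 from lung and 216 from blood. The animals were female C57BL/6J mice aged 6 to 8 weeks that had been injected with fluorescently labelled B16F10 cells, and lung and blood cells share this treatment. Flow sorting used tumor and host markers whose names are not given, and RNA was read by Smart-seq2, which makes a full-length library from each cell. Nothing in the labels ties a sample to 1 animal, so the p-values measure the spread between these samples, which may be technical. Counts were summed per sample and tissue over both classes.

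Lung and blood were paired in the 3 samples with at least 2 such cells in each tissue. Replicate 3 (labelled C1R) had 6 cells in lung, 4 CTC and 2 DP, against 32 in blood, 11 CTC and 21 DP. Replicate 5 (C2R) had 16 in lung, 10 CTC and 6 DP, against 43 in blood, 4 CTC and 39 DP. Replicate 7 (P1) had 34 in lung against 11 in blood, all DP. The class mix therefore moved with tissue in replicates 3 and 5. Replicate 8 (P2) had 31 lung cells only, and replicates 1 (C1L), 2 (C1N), 6 (C3R) and 9 (P4) gave blood sums of 33, 17, 65 and 15 cells. The single lung cell of replicate 2 is a value without a group, and replicates 1 and 4 (C2N) had lung cells of these classes but 0 that met the rule. Of the sorted DP and CTC cells, the share that met the rule was 15.8%, 45.7%, 72.3% and 88.6% in the lung of replicates 3, 5, 7 and 8. In blood it was 94.1%, 100% and 23.9% in replicates 3, 5 and 7 and 51.7% to 91.7% in the 4 blood-only samples. The sort sets these shares, and no test was made of them.

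A melanocyte-derived tumor cell makes pigment in melanosomes, whose matrix protein and enzymes are encoded by Pmel, Tyrp1 and Dct and are switched on by the transcription factor MITF. B16F10 cells seed the lung when they reach it through the bloodstream. Immediate-early genes such as Fos, Jun and Atf3 encode transcription factors that many cells induce within a short time of a stimulus, and they are also known to be induced when tissue is dissociated into single cells. The labels do not say how lung cells were freed, so tissue of residence and handling cannot be told apart in any difference given here.

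Paired sums held 122.4 to 781.1 mega-counts (M counts), and no pair of cells had identical counts. The lung sum of replicate 3, the smallest, correlated least with the others across genes (Pearson's r of log2 CPM 0.736 to 0.75 with the blood sums, against 0.841 to 0.874 for the other lung sums). The blood sum of replicate 9 stood apart through B-cell markers, 932 CPM in sum, against 0.26 to 220.7 CPM in the other blood sums. The 4 genes of the rule are described without a test. Pmel was 7304, 10164 and 6758 CPM in lung, against 9459.6, 9750.1 and 8399 CPM in blood of replicates 3, 5 and 7, and Tyrp1 was 10864, 10634 and 11629.6 CPM in lung, against 9649.5, 15429.8 and 14500.0 CPM in blood. The cells nearest the threshold had 5023 and 5627 CPM inside it and 4942 and 4429 CPM outside it, all in blood. Outside the rule, Sox10, a neural-crest factor of melanocytes, reached 10 CPM in 84 of 88 lung cells and 215 of 216 blood cells. Ptprc, which encodes the leukocyte antigen CD45, reached it in 7 of 88 and 18 of 216. Lung epithelium markers summed to 0.0572 to 6.97 CPM in the lung sums, against 0.0569 to 14.1 CPM in the blood sums.

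No gene of the 12950 tested passed an adjusted p of 0.05 in the paired comparison (edgeR's quasi-likelihood test with the sample as a block; 0.0% in each direction), and the smallest adjusted p was 0.252. At an unadjusted p under 0.05, 353 genes (2.73%) were higher and 227 (1.75%) lower in lung, 580 in all (4.48%), and leaving out replicate 5 or 7 gave 307 or 344. DESeq2, which estimates spread differently, called 146 genes higher (1.08% of 13564) and 192 lower (1.42%), and limma on the mean of log2 values over cells called 0 of 9280, with 1990 at an unadjusted p under 0.05. In all 3 pairs, by direction after TMM scaling, 1922 genes (14.8%) were higher and 2046 (15.8%) lower in lung, and over all genes the median log2 difference was -0.08. The 4 lung sums lay above all 7 blood sums for 65 genes (0.502%) and below them for 248 (1.92%). These shares are the background for the counts of each gene list. The 5 genes with the smallest p among those higher in every pair were Atf3, Ccn1, Jun, Ifit1 and B2m, and the 5 lower were Nacc2, Syne2, Plxna1, Gas2l3 and Fasn. DESeq2 called all 10, on the same sums from which these genes were chosen, so its calls are not separate evidence.

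Jun, Fos, Junb and Atf3 were higher in lung in every pair. Jun encodes a subunit of the AP-1 transcription factor. It lies at chr4:95049034-95052222, minus strand, in GENCODE vM21 coordinates of GRCm38 as for all genes here, and overlaps the antisense gene Junos, from which its reads cannot be told apart since the use of strand in counting is not given. It was 264, 166 and 124 CPM in the lung sums of replicates 3, 5 and 7, against 77.5, 32.2 and 8.26 CPM in their blood sums. It was 139.6 CPM in the lung sum of replicate 8, against 19.9 to 56.6 CPM in the 4 blood-only sums. All 4 lung sums lay above all 7 blood sums. The log2 difference was 2.81 (SE 0.44; adjusted p = 0.959). Fos encodes a partner of JUN in AP-1 (chr12:85473890-85477273, plus strand) and was 274, 911 and 291 CPM in the lung sums of replicates 3, 5 and 7, against 107, 97.3 and 88.8 CPM in their blood sums, with 427 CPM in the lung sum of replicate 8, against 41.5 to 600.2 CPM in the 4 blood-only sums. The 3 pairs did not overlap for Fos, but the blood sum of replicate 9 lay above 3 of the 4 lung sums. Its log2 difference was 2.23 (SE 0.41; adjusted p = 0.959). Junb, another AP-1 subunit, was 207, 184 and 72.5 CPM in the lung sums of replicates 3, 5 and 7, against 81.3, 42.8 and 49.0 CPM in their blood sums, a log2 difference of 1.49 (SE 0.36; adjusted p = 0.959).

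Atf3, a transcription factor of stress responses (chr1:191170296-191218039, minus strand), was 420.3, 87.2 and 23.9 CPM in the lung sums of replicates 3, 5 and 7, against 24.3, 9.27 and 1.31 CPM in their blood sums, with 56.9 CPM in the lung sum of replicate 8, against 0.223 to 111 CPM in the 4 blood-only sums. Every pair was higher in lung, while the blood sums of replicates 3, 6 and 9, at 24.3, 33.0 and 111 CPM, lay among the lung sums. The log2 difference was 3.99 (SE 0.31; adjusted p = 0.252). In replicate 3 lung, 1 DP cell held 77.7% of the Atf3 counts and 89.7% of the Jun counts, and that cell also had 1400 CPM of monocyte and macrophage markers and 23 CPM of Ptprc. Without replicate 3 the log2 differences were 3.82 for Atf3, 3.24 for Jun and 2.58 for Fos. In cells with Ptprc under 10 CPM they were 3.97, 1.98 and 1.48. In DP cells alone they were 5.26, 4.24 and 3.23, and in CTC cells alone, which only replicates 3 and 5 have in both tissues, 5.92, 0.80 and 0.86. In CTC cells of replicate 3, Jun was 30 CPM in lung against 165 CPM in blood and Fos 43.5 CPM against 119 CPM, both lower in lung. The 2 DP cells of replicate 3 lung had 2396 CPM of Jun and 2381 CPM of Fos. The median of all genes was -0.695 in DP cells alone and -0.0459 in CTC cells alone, and DP values are read against it. The B16F10 control, 22 cells of the line in 1 sample, had 25.6 CPM of Jun, 3.92 of Fos and 6.00 of Atf3.

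Of the 16 immediate-early genes, 0 passed the adjusted test, 6 were higher at an unadjusted p under 0.05 and 0 lower. In all 3 pairs 7 were higher and 0 lower, and their median log2 difference was 1.28, with 1.56, 2.05 and 0.88 in replicates 3, 5 and 7. DESeq2 called 5, all higher. Their summed level was 1816, 1857, 831 and 1109 CPM in the lung sums of replicates 3, 5, 7 and 8, against 622, 445 and 383 CPM in the paired blood sums. The 4 blood-only sums had 379.9 to 1261 CPM, the last in replicate 9, which alone of the blood sums exceeded any lung sum. Cells of the same samples that did not meet the rule, sorted leukocytes and cells under the threshold, had 16.3 to 689.5 CPM of Atf3 in 7 lung sums, against 0.539 to 171.8 CPM in 8 blood sums, and the lung value was the higher in each of the 6 samples that had both. For Jun the same sums had 73.0 to 271 CPM in lung and 41.6 to 486 CPM in blood. The lung value of Jun was the lower in replicates 1, 2, 3, 4 and 5 and the higher in replicate 7 alone. That of Fos was the lower in replicates 2, 3 and 5 and the higher in replicates 1, 4 and 7.

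**Figure D1:**
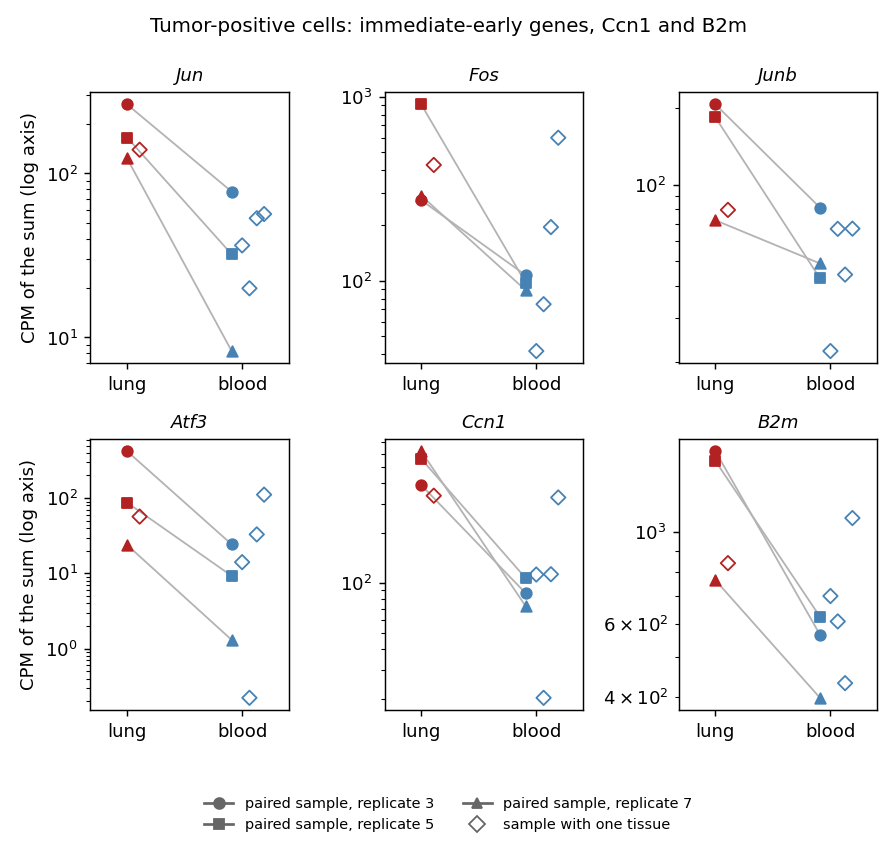
Levels of Jun, Fos, Junb, Atf3, Ccn1 and B2m (CPM of the sum, log axis) in lung (red, left) and blood (blue, right) sums of tumor-positive cells. Filled symbols joined by a line are the 3 paired samples, and open diamonds are replicate 8 in lung and replicates 1, 2, 6 and 9 from left to right in blood. Each line slopes down to blood, and the open blood diamond of replicate 9 is the highest blood value for Fos, Atf3, Ccn1 and B2m.

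The members differed widely among themselves in these genes. Jun reached 10 CPM in 4 of 6, 13 of 16, 26 of 34 and 24 of 31 lung cells of replicates 3, 5, 7 and 8 (66.7% to 81.2%). In blood it did so in 13 of 32, 20 of 43 and 3 of 11 cells of replicates 3, 5 and 7, and in 35.3% to 54.5% of cells in the 4 blood-only samples. The 4 lung shares lay above the 7 blood shares, although the exact 95% binomial intervals of lung and blood overlapped within each of the 3 paired samples. The median cell had 53.4, 111, 76.4 and 51.7 CPM of Jun in the lung samples, against 0.022 to 13.9 CPM in the blood samples. Over cells with under 50 CPM of monocyte and macrophage markers, Jun reached 10 CPM in 7 of 9, 21 of 27 and 20 of 24 lung cells of replicates 5, 7 and 8, against 30.0% to 55.6% of such cells in the blood samples. In all cells the shares of these 3 lung samples were 81.2%, 76.5% and 77.4%. Replicate 3 lung had 1 cell with so little macrophage RNA, which reached 10 CPM of Jun.

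For Atf3 a smaller fraction of cells was involved, 4 of 6, 7 of 16, 9 of 34 and 11 of 31 lung cells at 10 CPM, against 4 of 32, 4 of 43 and 1 of 11 in paired blood and 5.88% to 33.3% in the blood-only samples. Ccn1, which encodes a secreted matrix protein that binds integrins (chr3:145646976-145649981, minus strand), was 388, 557 and 619.6 CPM in the lung sums of replicates 3, 5 and 7, against 86.4, 106 and 72.0 CPM in their blood sums, and 334 CPM in the lung sum of replicate 8, against 20.3 to 326 CPM in the 4 blood-only sums. All 4 lung sums lay above all 7 blood sums, and the log2 difference was 2.69 (SE 0.24; adjusted p = 0.281). In single cells the pattern was unlike that of Jun. Cells with 10 CPM of Ccn1 made up 37.5% to 61.8% in the lung samples and 33.8% to 57.6% in the blood samples. The 2 cells with the most Ccn1 counts held 99.9%, 74.1%, 51.4% and 44.7% of them in the lung sums of replicates 3, 5, 7 and 8. The highest cell reached 1556, 4426, 6208 and 2572 CPM, against 409.8, 1531 and 296 CPM in paired blood and 293 to 2890 CPM in the blood-only samples, the last in replicate 9. Of the other cells, the single lung cell of replicate 2 had 909.6 CPM. On the mean of log2 values over cells, which weights each cell equally, the log2 difference was 0.94 for Ccn1 and 3.24 for Jun. Without the replicate block Ccn1 passed the adjusted test (log2 difference 2.70, adjusted p = 0.0401 by edgeR; 1.69e-21 to 1.0 over the alternatives). In DP cells alone its log2 difference was 1.34 and in CTC cells alone 4.67.

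**Figure D2:**
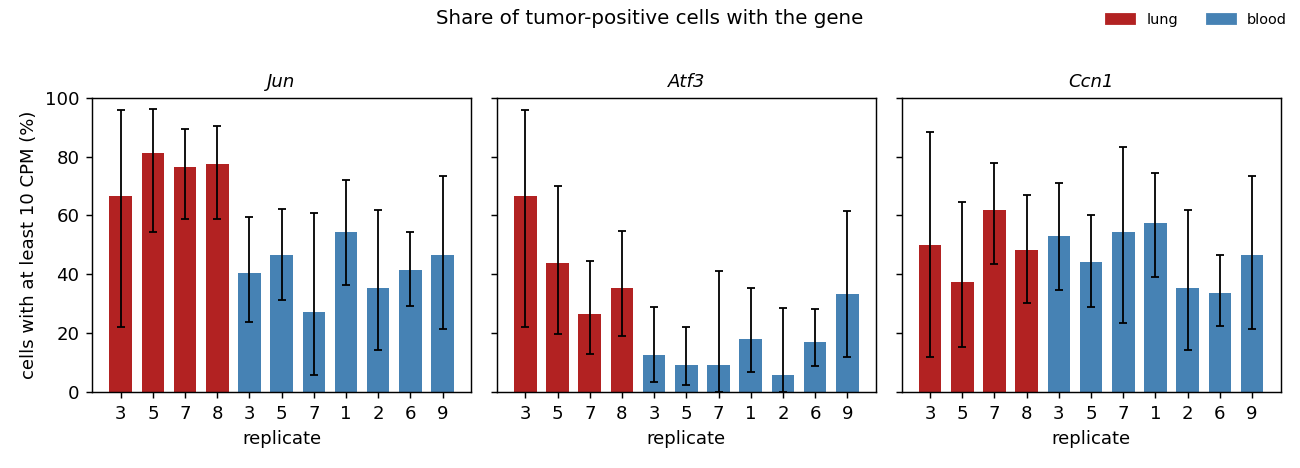
Share of tumor-positive cells with at least 10 CPM of Jun, Atf3 or Ccn1 (percent), for lung samples (red, left) and blood samples (blue, right) by replicate. Lines are exact 95% binomial intervals over cells of 1 sample. The Jun bars of lung are 66.7% to 81.2% and those of blood 27.3% to 54.5%, whereas the Ccn1 bars of lung and blood overlap.

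Heat-shock chaperones, which refold damaged proteins, were higher in all 3 pairs for 8 of 12 genes and lower for 0, with 0 called and 3 at an unadjusted p under 0.05, all higher. The summed level was 11424, 9654 and 15063 CPM in lung of replicates 3, 5 and 7, against 12869, 8538 and 15069 CPM in blood, lower in lung in replicate 3 and nearly equal in replicate 7. The median log2 difference of the genes was 0.28, and it was 0.48, 0.39 and 0.07 in replicates 3, 5 and 7. Dnajb1, a co-chaperone of HSP70, was 284, 73.9 and 273 CPM in lung, against 145, 45.2 and 80.1 CPM in blood of replicates 3, 5 and 7 (log2 difference 1.29, SE 0.25, adjusted p = 0.959). It was 0.04 in CTC cells alone. Bag3, which links HSP70 to protein disposal, was 180.0, 106 and 90.2 CPM in lung, against 75.1, 66.7 and 39.8 CPM in blood, with 84.3 CPM in the lung sum of replicate 8, against 57.8 to 73.6 CPM in the 4 blood-only sums. All 4 lung sums of Bag3 lay above the 7 blood sums, and the log2 difference was 1.18 (SE 0.24; adjusted p = 0.959). Hspa1a and Hspa1b are near-identical genes for the inducible HSP70, and their reads may be split between them. Hspa1a was 119.8, 0.470 and 27.2 CPM in lung, against 0.00569, 0.486 and 0.00360 CPM in blood. Hspa1b was 19.1, 7.58 and 7.45 CPM in lung, against 0.178, 0.00296 and 0 CPM in blood. The cells at 10 CPM were 19 of 88 in lung and 1 of 216 in blood for Hspa1b, and 10 of 88 and 1 of 216 for Hspa1a. In replicate 3 lung, the DP cell named for Atf3 held 98.7% of the Hspa1a counts. The B16F10 control had 0 CPM of Hspa1a and 0.278 CPM of Hspa1b.

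The promoters of Jun and Hspa1b are shown because both hold the inverted pair of GAA units that heat-shock factors recognise, searched as GAANNTTC, which reads the same on either strand. Bases 170 to 51 before the RefSeq start of each gene are given on the sense strand (GRCm38.p6), with the motif in capitals, 128 to 121 bases before the start of Jun (chr4:95052273-95052392, minus strand) and 104 to 97 before that of Hspa1b (chr17:34959289-34959408, minus strand).
Jun: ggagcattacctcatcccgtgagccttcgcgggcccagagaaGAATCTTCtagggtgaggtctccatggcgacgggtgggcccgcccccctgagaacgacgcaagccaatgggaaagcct
Hspa1b: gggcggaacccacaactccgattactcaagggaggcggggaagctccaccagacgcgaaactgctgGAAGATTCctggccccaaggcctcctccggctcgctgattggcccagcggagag
Of 32851 RefSeq promoters of 300 bases, 7.86% held GAANNTTC, and among the lists 8 of 9 heat-shock chaperone genes and 1 of 14 immediate-early genes with a promoter in the table did. The letters TGANTCA of AP-1 sites (7.81% of promoters) and TGACGTCA of cyclic AMP response elements (1.79%), searched on both strands, were not in the windows of Atf3, Jun, Fos and Ccn1, which says only that these letters are not there. A match is a description of the sequence and not a bound site.

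Inducible interferon genes such as Ifit1 were present in few members, although the summed level of the list reached 10 CPM in most cells, with medians of 208 to 367 CPM over cells of the 4 lung samples and 205 to 309 CPM over those of the 7 blood samples. Ifit1, an antiviral protein that binds foreign RNA (chr19:34640871-34650009, plus strand), was 75.6, 3.56 and 1.66 CPM in lung, against 0 counts in the 3 paired blood sums. Over these sums it had 12657 counts in lung, at least 4950-fold higher in CPM than a floor of 3 counts over the blood sums, a bound for counting error only. It was 6.65 CPM in the lung sum of replicate 8, against 0 to 1.24 CPM in the 4 blood-only sums, and the B16F10 control had 68.7 CPM. The lung level rested on single cells. At 10 CPM Ifit1 was in 2 of 6, 1 of 16, 1 of 34 and 1 of 31 lung cells, and the leading cell held 99.3% to 99.8% of the counts in each lung sum. Across the 88 lung and 216 blood cells it was in 5 and 2. Ifit3, of the same family, was 159, 3.89 and 15.4 CPM in lung, against 0.806, 2.45 and 3.66 CPM in blood. All 4 lung sums lay above the 7 blood sums, the nearest at 3.89 CPM in lung and 3.66 CPM in blood. The leading cell held 99.9%, 85.3%, 75.5% and 55.1% of the Ifit3 counts in the lung sums of replicates 3, 5, 7 and 8. In replicate 3 it was the DP cell named for Atf3. Ifit3 was at 10 CPM in 12 of 88 lung cells and 16 of 216 blood cells. Usp18, a protease that removes the ISG15 modifier, was 20.5, 4.12 and 2.54 CPM in lung, against 0.00190, 2.16 and 0.00541 CPM in blood, and Isg15 itself 20.5, 1.81 and 0.775 CPM in lung, against 1.43, 2.49 and 0 CPM in blood. Of 18 genes of the list tested, 0 were called, 1 was higher at an unadjusted p under 0.05, and 4 were higher and 0 lower in all 3 pairs. The median log2 difference was 0.92.

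B2m, the light chain of MHC class I, had higher lung values in the median cell as well as in the sums of the 3 paired samples. It is at chr2:122147686-122153083, plus strand, overlaps the opposite-strand gene Patl2, and was 1567, 1484 and 765 CPM in the lung sums of replicates 3, 5 and 7, against 565, 624 and 398 CPM in their blood sums. It was 841 CPM in the lung sum of replicate 8, against 431 to 1080.3 CPM in the 4 blood-only sums, so that the blood sum of replicate 9 lay among the lung sums. The log2 difference was 1.37 (SE 0.23; adjusted p = 0.959). The median cell had 914, 1010.4 and 585 CPM in lung, against 471, 552 and 387 CPM in blood, and the B16F10 control sum 1099.5 CPM. In lung of replicate 8 the median cell had 803 CPM, against 342 to 853 CPM in the 4 blood-only samples. The last, in replicate 9, lay above the lung medians of replicates 7 and 8. In cells with Ptprc under 10 CPM the log2 difference was 1.12. H2-T23, a non-classical class I heavy chain, was 96.4, 24.6 and 28.3 CPM in lung, against 14.7, 19.9 and 10.7 CPM in blood (log2 difference 1.60, SE 0.62, adjusted p = 0.959). Tapbp, which loads peptide onto class I, was 166, 110.3 and 49.5 CPM in lung, against 81.8, 99.5 and 34.8 CPM in blood (log2 difference 0.70, SE 0.27, adjusted p = 0.959). In the lung sum of replicate 8, H2-T23 was 16.7 CPM and Tapbp 69.8 CPM, against 80.5 CPM and 93.5 CPM in the blood sum of replicate 9, which lay among the lung sums for both genes. H2-K1, a class I heavy chain, was 160, 158 and 119 CPM in lung, against 82.2, 227 and 50.3 CPM in blood, lower in lung in replicate 5. Its highest sum was the blood sum of replicate 9, at 392 CPM. Of 12 class I and antigen-processing genes, 3 were higher at an unadjusted p under 0.05, and 4 were higher and 1 lower in all 3 pairs. Their median log2 difference was 0.32, with -0.08, 0.38 and 0.36 in replicates 3, 5 and 7. H2 genes resemble each other, and reads may be split between them.

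The promoters of Ifit1 and B2m are shown for the paired GAAA units of interferon-stimulated response elements, searched on both strands as GAAA, any 2 bases and GAAA, and written in capitals. In Ifit1 (chr19:34640719-34640838, plus strand) the match is on the opposite strand at 104 to 95 and at 85 to 76 bases before the start, and in B2m (chr2:122147517-122147636, plus strand) on the sense strand at 139 to 130 bases before it.
Ifit1: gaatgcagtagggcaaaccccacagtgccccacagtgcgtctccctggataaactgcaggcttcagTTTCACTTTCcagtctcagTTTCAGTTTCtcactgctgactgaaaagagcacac
B2m: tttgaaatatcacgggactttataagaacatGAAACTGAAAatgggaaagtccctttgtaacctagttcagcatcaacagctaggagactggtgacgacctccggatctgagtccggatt
The motif was in 3.44% of the 32851 promoters. Of the listed genes with a promoter in the table, 10 of 16 interferon genes and 3 of 10 class I genes held it. It is a description, as for the heat-shock motif.

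Among the genes with lower lung values, Nacc2, a transcriptional repressor with a BTB domain (chr2:26055535-26123220, minus strand, over the antisense gene Gm13554), was 26.8, 45.9 and 50.5 CPM in the lung sums of replicates 3, 5 and 7, against 115, 153 and 123 CPM in their blood sums. It was 40.9 CPM in the lung sum of replicate 8, against 67.8 to 105 CPM in the 4 blood-only sums. The 4 lung sums lay below the 7 blood sums, and the log2 difference was -1.56 (SE 0.26; adjusted p = 0.959). It reached 10 CPM in 55 of 88 lung cells and 182 of 216 blood cells, with medians of 34.1 and 87.3 CPM. Its log2 difference was -1.22 in DP cells alone and -2.02 in CTC cells alone, where the medians of all genes were -0.695 and -0.0459. Fasn, the enzyme that makes palmitate (chr11:120805846-120824547, minus strand), was 128, 162 and 206 CPM in the lung sums of replicates 3, 5 and 7, against 409, 398 and 342 CPM in their blood sums, with 134 CPM in the lung sum of replicate 8, against 239 to 466 CPM in the 4 blood-only sums. Its 4 lung sums also lay below the 7 blood sums, and the log2 difference was -1.09 (SE 0.23; adjusted p = 0.959), with -1.15 in DP cells and -1.22 in CTC cells alone.

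Syne2, a nesprin that ties the nucleus to the cytoskeleton (chr12:75818134-76110926, plus strand), was 73.9, 149 and 117 CPM in lung, against 202, 337 and 222 CPM in blood, with 68.2 CPM in the lung sum of replicate 8, against 167 to 192 CPM in the 4 blood-only sums. Its lung sums lay below all blood sums, and the log2 difference was -1.04 (SE 0.19; adjusted p = 0.959), but -0.06 in DP cells alone and -1.89 in CTC cells alone. Plxna1, a receptor for semaphorins (chr6:89316314-89362620, minus strand), was 105, 155 and 133 CPM in lung, against 316, 343 and 239.8 CPM in blood (log2 difference -1.05, SE 0.21, adjusted p = 0.959), and -0.29 in DP cells alone. The 4 blood-only sums had 147 to 260 CPM of Plxna1, and the lowest, in replicate 6, lay below the lung sum of replicate 5. Gas2l3, which crosslinks actin and microtubules (chr10:89408823-89443967, minus strand), was 34.2, 75.8 and 53.8 CPM in lung, against 86.8, 172 and 134 CPM in blood (log2 difference -1.14, SE 0.22, adjusted p = 0.959). Its 4 blood-only sums had 67.5 to 111 CPM, and the lowest, in replicate 9, lay below the lung sum of replicate 5. In the median cell Gas2l3 was at 16.7, 35.6 and 34.1 CPM in lung, against 84.5, 152 and 126 CPM in blood. For Syne2 and Plxna1 the value in DP cells alone lay above the -0.695 of all genes there.

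**Figure D3:**
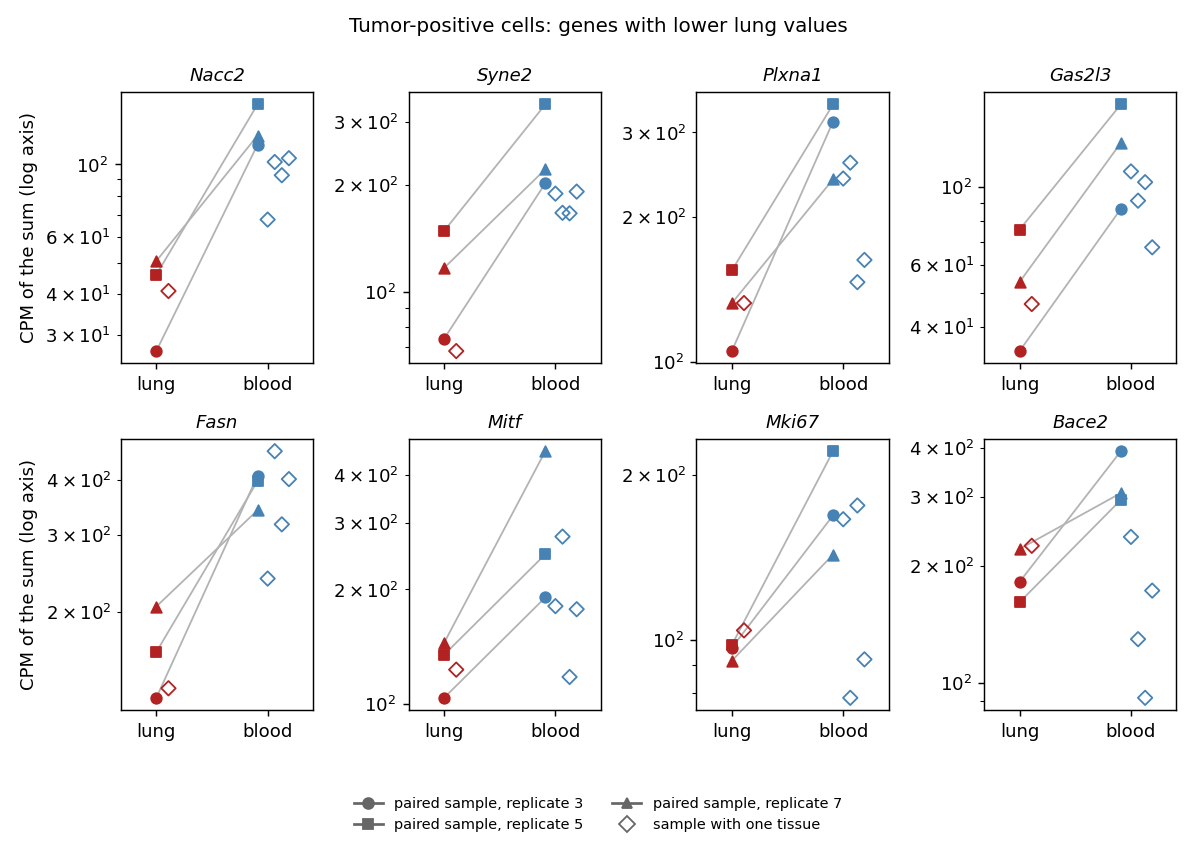
Levels of Nacc2, Syne2, Plxna1, Gas2l3, Fasn, Mitf, Mki67 and Bace2 (CPM of the sum, log axis) in lung (red, left) and blood (blue, right) sums, with lines joining the 3 paired samples and open diamonds for samples with one tissue. Each line slopes up to blood, and for Nacc2, Syne2 and Fasn no lung symbol reaches the lowest blood symbol.

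Cell-cycle genes were lower in lung in some samples only. Mki67, a marker of cycling cells, was 96.9, 98.1 and 91.8 CPM in the lung sums of replicates 3, 5 and 7, against 169, 221 and 143 CPM in their blood sums, with 104 CPM in the lung sum of replicate 8, against 78.6 to 176 CPM in the 4 blood-only sums. The 3 pairs did not overlap, the log2 difference was -0.73 (SE 0.21; adjusted p = 0.959), while the blood sum of replicate 2 lay below all lung sums and that of replicate 9 among them. Cells at 10 CPM of Mki67 were 1 of 6, 9 of 16 and 16 of 34 in lung, against 22 of 32, 20 of 43 and 9 of 11 in blood, so that in replicate 5 the share was not lower in lung. Of 16 mitosis genes 6 were lower and 0 higher in all 3 pairs, 1 of them at an unadjusted p under 0.05, with a median log2 difference of -0.72. Of 15 DNA-replication genes 5 were lower and 1 higher in all 3 pairs, 0 at an unadjusted p under 0.05, with a median of -0.76. Both medians were lowest in replicate 3. The mitosis median was -1.70, -0.43 and 0.12 in replicates 3, 5 and 7 and the replication median -2.17, 0.07 and -0.18, and without replicate 3 the fitted mitosis median was -0.21. Plk1, a kinase of mitosis, was 31.6, 179.7 and 178 CPM in lung, against 183, 292 and 202 CPM in blood. Aurkb, another mitotic kinase, was 24.2, 166 and 177 CPM in lung, against 211, 247 and 218 CPM in blood. Mcm3, a subunit of the replicative helicase, was 81.4, 216 and 347 CPM in lung, against 497, 255 and 534 CPM in blood.

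Pigment genes outside the rule differed little. Of 12 pigment and melanosome genes, 5 were lower and 1 higher in all 3 pairs, 1 was lower at an unadjusted p under 0.05, and the median log2 difference was -0.20. Bace2, a protease that cleaves the PMEL protein, was 182, 161 and 220.4 CPM in lung, against 392, 294 and 306 CPM in blood (log2 difference -0.67, SE 0.20, adjusted p = 0.959), while 3 of the 4 blood-only sums lay in or below the range of the lung sums. Tyr, the enzyme that starts melanin synthesis, was 662, 1124 and 938 CPM in lung, against 645, 1005 and 620.4 CPM in blood. Trpm1, a channel of melanocytes, was 396, 359 and 433 CPM in lung, against 709.6, 901 and 442 CPM in blood. Among 9 lineage regulators tested, Mitf, the master factor of melanocytes (chr6:97807052-98021349, plus strand), was 104, 135 and 145 CPM in the lung sums of replicates 3, 5 and 7, against 191, 248 and 462 CPM in their blood sums, with 123 CPM in the lung sum of replicate 8, against 118 to 276 CPM in the 4 blood-only sums. The 3 pairs did not overlap, and the log2 difference was -0.998 (SE 0.26; adjusted p = 0.959), with -0.22 in DP cells alone and -0.96 in CTC cells alone. The value in DP cells lay above the -0.695 of all genes there. Pax3, an upstream regulator of Mitf, was 299, 216 and 177 CPM in lung, against 247, 229 and 147 CPM in blood. Sox10 was 315, 342 and 192 CPM in lung, against 271, 342 and 299.8 CPM in blood. Sox10 had no common direction over the 3 pairs, and Pax3 was higher in lung in replicate 5 only after TMM scaling. The list's median log2 difference was 0.000252.

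Ribosomal protein and respiratory-chain genes had slightly higher values in lung, with 0 called. Of 18 ribosomal protein genes, 15 were higher and 0 lower in all 3 pairs, 3 at an unadjusted p under 0.05, and the median log2 difference was 0.39, with 0.46, 0.40 and 0.26 in replicates 3, 5 and 7. Rpl32 was 1709, 1562 and 1125 CPM in lung, against 909, 942 and 838 CPM in blood (log2 difference 0.83, SE 0.23, adjusted p = 0.959), although the blood-only sums, at 1102 to 1363 CPM, lay just below or within the range of the lung sums. Ribosomal protein genes have many processed copies in the genome, and reads may be split between them. Of 15 nuclear-encoded respiratory-chain genes tested, 10 were higher and 1 lower in all 3 pairs, 5 at an unadjusted p under 0.05, with a median of 0.43. Ndufa1, a subunit of complex I, was 183, 244 and 193 CPM in lung, against 136, 163 and 108 CPM in blood (log2 difference 0.76, SE 0.19, adjusted p = 0.959). The 4 blood-only sums had 167 to 243.7 CPM of Ndufa1, the last in replicate 9 and as high as the highest lung sum, at 243.6 CPM. Cox6c, of complex IV, was 451, 449 and 309 CPM in lung, against 208, 282 and 264 CPM in blood (log2 difference 0.81, SE 0.25, adjusted p = 0.959). In summed level the respiratory list was 7248 to 8726 CPM over the 4 lung sums, against 6391 to 7911 CPM over the 7 blood sums.

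Antioxidant and iron genes were higher in all 3 pairs for 9 of 15 and lower for 0, with 5 at an unadjusted p under 0.05 and a median log2 difference of 0.51. Hmox1, which breaks down haem, was 339, 136 and 134 CPM in the lung sums of replicates 3, 5 and 7, against 74.3, 87.5 and 51.5 CPM in their blood sums, with 219 CPM in the lung sum of replicate 8, against 87.8 to 385 CPM in the 4 blood-only sums. The pairs did not overlap, the log2 difference was 1.54 (SE 0.35; adjusted p = 0.959), and the blood sum of replicate 6 was the highest of all. Fth1, the heavy chain of the iron store ferritin, was 3303, 2925 and 2215 CPM in lung, against 1809, 1792 and 1444 CPM in blood (log2 difference 0.87, SE 0.23, adjusted p = 0.959). Gpx4, which reduces lipid peroxides, was 533, 539 and 399 CPM in lung, against 409.8, 410.3 and 277 CPM in blood (log2 difference 0.58, SE 0.17, adjusted p = 0.959). Cat, or catalase, had a log2 difference of 0.66 (SE 0.23; adjusted p = 0.959), but of -1.37 in DP cells alone. Of 12 genes of the unfolded-protein and amino acid stress list, 2 were higher and 1 lower at an unadjusted p under 0.05. Trib3, a pseudokinase of the ATF4 pathway, was 145, 144 and 51.5 CPM in lung, against 72.4, 93.2 and 11.4 CPM in blood (log2 difference 1.41, SE 0.35, adjusted p = 0.959). It was 105 CPM in the lung sum of replicate 8, against 17.3 to 179 CPM in the 4 blood-only sums. The blood sums of replicates 1 and 6 lay above every lung sum of Trib3. Ddit3, which overlaps the opposite-strand gene Mars, was 331, 103 and 44.5 CPM in lung, against 65.1, 69.9 and 29.0 CPM in blood (log2 difference 1.30, SE 0.43, adjusted p = 0.959). Hyou1, an endoplasmic reticulum chaperone, was 49.5, 61.9 and 58.2 CPM in lung, against 75.1, 151 and 87.0 CPM in blood (log2 difference -0.68, SE 0.27, adjusted p = 0.959), with all 4 lung sums below the blood sums.

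Among 14 adhesion genes, 5 were higher and 0 lower in all 3 pairs, 2 at an unadjusted p under 0.05, with a median of 0.25. Cd9, a tetraspanin of the cell surface, was 260.1, 268 and 183 CPM in lung, against 138, 117 and 169.6 CPM in blood (log2 difference 0.89, SE 0.28, adjusted p = 0.959). Cd63, a tetraspanin of melanosomes and endosomes, was 1539, 1781 and 1133 CPM in lung, against 1154, 1063 and 991 CPM in blood (log2 difference 0.59, SE 0.23, adjusted p = 0.959). Of 10 mesenchymal-transition genes tested, 3 were higher and 0 lower in all pairs. Fn1, fibronectin, was 71.6, 64.2 and 58.3 CPM in lung, against 64.9, 40.2 and 26.3 CPM in blood (log2 difference 0.80, SE 0.32, adjusted p = 0.959). Sparc, a matrix glycoprotein, was 1079, 986 and 812 CPM in lung, against 895, 569 and 701 CPM in blood (log2 difference 0.57, SE 0.22, adjusted p = 0.959), but -0.30 in DP cells alone, above the median of all genes there. Vim, the intermediate filament of mesenchymal cells, was 2478, 2105 and 2069 CPM in lung, against 1634, 1467 and 2362 CPM in blood (log2 difference 0.46, SE 0.28, adjusted p = 0.959). Of 14 signal genes of TGF-beta and inflammation, 1 was higher at an unadjusted p under 0.05. This was Cxcl1, a chemokine for neutrophils, at 2.90, 53.1 and 1.24 CPM in lung against 0, 0.00296 and 0.0108 CPM in blood. In replicate 5 lung, 1 DP cell at 15820 CPM, with 18800 CPM of monocyte and macrophage markers, held 88.5% of its counts.

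Hypoxia, glycolysis and cholesterol genes had no common direction over the pairs. The hypoxia median was 0.47, -1.37 and 1.20 in replicates 3, 5 and 7, and of 17 genes tested 0 were at an unadjusted p under 0.05. Vegfa, the growth factor of vessels, was 22.9, 5.86 and 4.83 CPM in lung, against 2.54, 5.12 and 3.56 CPM in blood (log2 difference 1.34, SE 1.29, adjusted p = 0.959), and Slc2a1, a glucose transporter, 131, 136 and 217 CPM in lung, against 191, 316 and 151 CPM in blood (log2 difference -0.27, SE 0.34, adjusted p = 0.959). The glycolysis median was -0.17, -0.61 and 0.34 in the same replicates, with Ldha, lactate dehydrogenase A, at 5266, 3637 and 6978 CPM in lung, against 5557, 7004 and 5220.0 CPM in blood (log2 difference -0.06, SE 0.36, adjusted p = 0.992). Of 15 glycolysis genes 0 and of 14 cholesterol-synthesis genes 0 were at an unadjusted p under 0.05. The medians over the genes of the fitted log2 differences were 0.00699 and 0.0701.

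**Figure D4:**
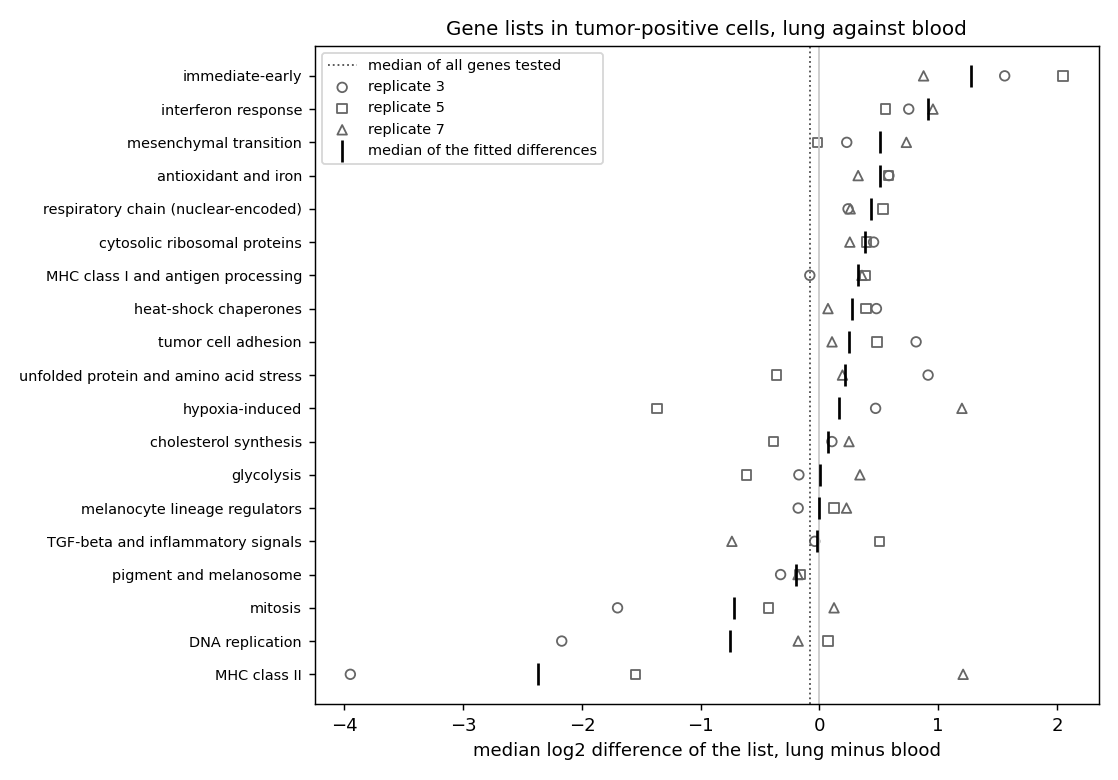
Median log2 difference, lung minus blood, of the genes of each list. Open symbols are the medians in replicates 3, 5 and 7, the black bar is the median of the fitted differences, and the dotted line is the median of all genes at -0.08. Immediate-early genes lie highest at 1.28 with every pair to the right of 0, and the pairs of hypoxia, mitosis, replication and class II genes spread on both sides of 0.

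MHC class II genes were in a minority of members in either tissue. Cd74, the class II invariant chain, was 0.196, 84.1 and 49.5 CPM in lung, against 167, 277 and 16.1 CPM in blood, and H2-Aa, a class II chain, 0.196, 48.6 and 15.8 CPM in lung, against 71.1, 139 and 7.48 CPM in blood. The pairs differed in direction, the log2 differences were -1.95 (SE 2.33; adjusted p = 0.959) and -1.91 (SE 1.99; adjusted p = 0.959), and that of Cd74 was 0.06 without replicate 3. Of 9 class II genes 0 were at an unadjusted p under 0.05, and 2 were lower in all 3 pairs. Cells at 10 CPM of Cd74 were 12 of 88 in lung and 38 of 216 in blood. Ciita, the activator of class II genes, had 2 counts over the 3 paired lung sums and 3773 over the blood sums, 0.00134 against 2.15 CPM, and all 4 lung sums lay below all 7 blood sums. B-cell markers were 0.212 to 18.4 CPM in the lung sums, against 0.260 to 932 CPM in the blood sums. The highest was in replicate 9, which also had the highest Cd74 at 1664 CPM. In blood, replicate 7 was lowest and replicate 9 highest in the summed level of both lists. In lung, class II was highest in replicate 5, at 207 CPM with 1.48 CPM of B-cell markers, while B-cell markers were highest in replicate 7. The part of B-cell markers in the class II levels was not tested.

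Several platelet and red-cell transcripts were found in members from blood and at or near 0 in those from lung. Ppbp, a platelet chemokine, reached 10 CPM in 11 of 32, 11 of 43 and 0 of 11 blood cells of replicates 3, 5 and 7. It did so in 0 of 88 lung cells over all samples. Within 1 sample, the exact 95% binomial interval allowed a share of up to 45.9%, 20.6%, 10.3% and 11.2% in lung of replicates 3, 5, 7 and 8. Over the 3 pairs Ppbp had 2 counts in lung and 14830 in blood, 0.00134 against 8.44 CPM. In the blood-only samples it was in 0% to 27.3% of cells. Lung cells that did not meet the rule could carry Ppbp, at 101 CPM against 14.4 CPM in such blood cells of replicate 1. In replicate 7 the values were 18.0 CPM in lung and 8.18 CPM in blood. Such lung cells of replicates 2, 3, 4, 5 and 8 had 0 CPM. Gp9, a subunit of the platelet von Willebrand factor receptor, had 0 counts in lung and 5261 in blood over the 3 pairs. Against a floor of 3 counts over the lung sums it was at least 1490-fold lower in lung, a bound for counting error only. At 10 CPM Gp9 was in 0 of 88 lung cells and 17 of 216 blood cells. In paired blood it was in 2 of 32, 6 of 43 and 0 of 11 cells of replicates 3, 5 and 7. Itga2b, the platelet integrin chain, was in 0 of 88 lung cells and 16 of 216 blood cells at 10 CPM. Pf4 and Itgb3, of the same list, had no common direction over the 3 pairs. Pf4, another platelet chemokine, was 3.46, 2.22 and 7.50 CPM in lung, against 9.70, 6.69 and 2.89 CPM in blood, at 10 CPM in 8 of 88 lung cells and 41 of 216 blood cells. Itgb3, an integrin chain that melanoma cells can also carry, was 27.1, 6.68 and 12.2 CPM in lung, against 12.8, 13.7 and 26.0 CPM in blood. Replicate 7 blood had little Ppbp, at 0.00360 CPM. Of 7 platelet markers tested 4 were lower in all 3 pairs, 2 at an unadjusted p under 0.05, and the summed level of all 8 was 8.94 to 30.6 CPM in lung and 10.5 to 164 CPM in blood. Erythroid markers summed to 0 to 0.0168 CPM in lung and 0.465 to 18.7 CPM in blood, and Hba-a1, an alpha globin, was in 0 of 88 and 16 of 216 cells at 10 CPM.

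Markers of macrophages ran the other way in part. The 12 monocyte and macrophage markers summed to 252, 187 and 212 CPM in the paired lung sums, against 54.7, 378 and 41.1 CPM in blood, and 6 of 12 were higher in all 3 pairs, 2 at an unadjusted p under 0.05. They ranged over 187 to 504 CPM in the 4 lung sums and 21.9 to 593 CPM in the 7 blood sums. High levels came in single cells, with 2 cells at 1000 CPM or more in each of the 4 lung sums. Blood had 0, 4 and 0 such cells in replicates 3, 5 and 7, and 0, 3, 0 and 1 in replicates 1, 2, 6 and 9. The 9 alveolar macrophage markers summed to 7.41 to 84.3 CPM in lung and 0.236 to 39.2 CPM in blood. Chil3, a chitinase-like protein of alveolar macrophages, was in 4 of 6 lung cells of replicate 3 at 10 CPM, with a median of 27.5 CPM, and in 1 lung cell of replicate 5, against 3 of 216 blood cells. Its sums were 54.7, 2.31 and 0.745 CPM in lung, against 0.0303, 14.5 and 0 CPM in blood, with 36.2 CPM in the blood sum of replicate 2. Endothelial markers summed to 0.00817 to 1.52 CPM in lung and 0.00180 to 12.7 CPM in blood, T and NK cell markers to 0.00520 to 6.03 CPM and 0 to 0.0758 CPM, and neutrophil markers to 0.0327 to 3.78 CPM and 0.237 to 80.3 CPM. Fibroblast and matrix markers reached 89.7 CPM in the lung sum of replicate 8 and at most 22.0 CPM in blood. The part of these transcripts in the other differences was not tested beyond the values in cells with little Ptprc or macrophage RNA.

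**Figure D5:**
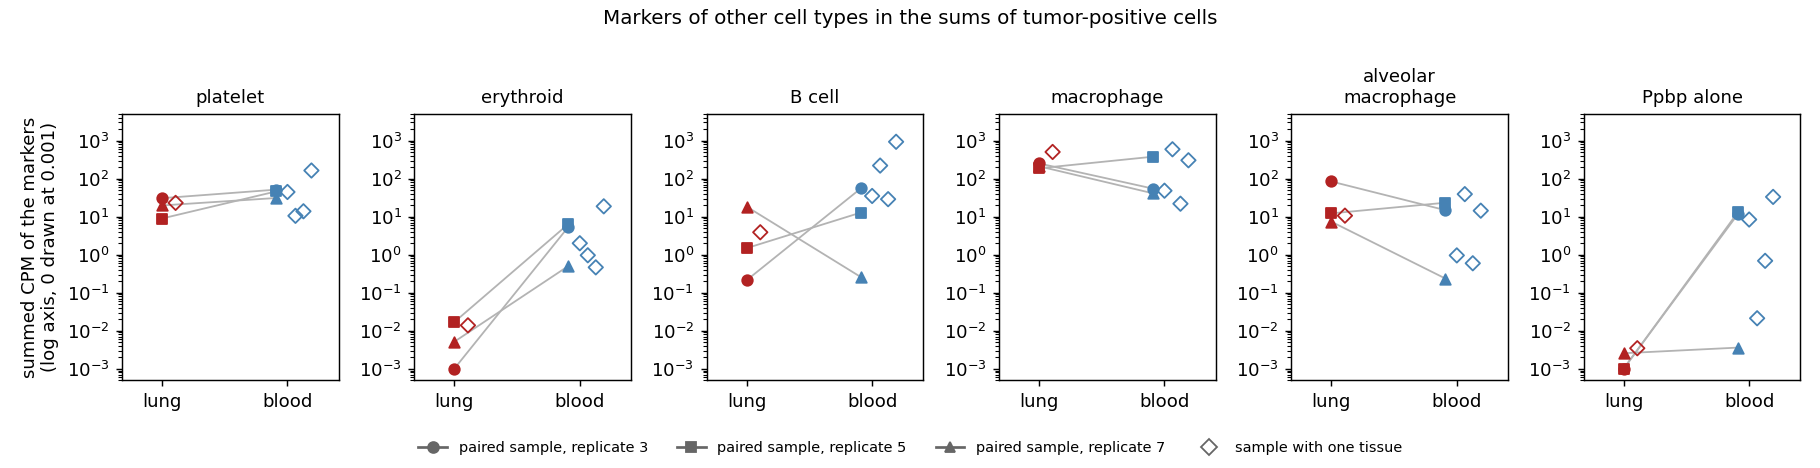
Summed CPM (log axis, 0 drawn at 0.001) of the markers of platelets, erythroid cells, B cells, macrophages and alveolar macrophages, and CPM of Ppbp alone, in lung (red, left) and blood (blue, right) sums. Lines join the 3 paired samples and open diamonds are samples with one tissue. Erythroid markers lie at most at 0.0168 CPM in lung and at least at 0.465 CPM in blood.

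Depth did not separate the tissues in one direction. The median cell had 26.0, 29.9 and 22.6 M counts in the lung of replicates 3, 5 and 7, against 16.7, 16.3 and 44.2 M counts in blood. The mean difference was 0.46 M counts (SD 19.2, n = 3 pairs; exact two-sided sign-flip permutation test, p = 1.0, where the smallest p that 3 pairs allow is 0.25). Detected genes per median cell were 7380, 9938 and 8068.5 in lung, against 8199.5, 9158 and 8681 in blood, a mean difference of -217 genes (SD 870.0, n = 3 pairs; exact sign-flip permutation test, p = 0.75). In replicate 3 lung cells had more counts and fewer detected genes than blood cells, and in replicate 7 fewer of both.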

How the data were processed

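RNA of single cells was measured by Smart-seq2, and whole-number counts per gene and cell were deposited by the authors, without normalisation per the file headers. Per the submitters' processing notes, Trim Galore, HISAT2, SAMtools, featureCounts, BWA and Picard were used with mm10; for versions, gene annotation and strand use, the state is: not given in the sources used here. Counts cover 21138 genes, and members had 284308 to 104170496 counts and 3712 to 11180 detected genes per cell. PCR reads are not independent molecules, so intervals and floors cover counting error only.

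Members had at least 5000 CPM of the 4 pigment genes summed. Members and lists were chosen with earlier results of these data known. Counts were summed per sample and tissue and tested with edgeR 4.0.16 (TMM scaling, filterByExpr, quasi-likelihood F test, sample and tissue as terms, Benjamini-Hochberg adjustment over all genes tested), in R 4.3.3; adjusted p-values without another name come from this test. The SE is the log2 difference divided by the root of F. DESeq2 1.42.0 and limma 3.58.1 (on log2(CPM + 1) averaged over cells) were alternatives, with other scalings, filters, thresholds, classes and left-out samples. With 3 pairs the fit had 2 residual degrees of freedom and a prior of 3.67. The pairing comes from the labels, which put both tissues in 1 sample; deviations of the lung and blood sums of 1 sample correlated at -0.0159, 0.0457 and -0.0882 across genes in replicates 3, 5 and 7. The fits were tested on simulated data. Cells keep their doublets, since no caller was run.

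Named genes were the 5 with the smallest p in each direction among those with the same sign in every pair and a mean of at least 20 CPM, fixed key genes, and up to 4 per list by p. Markers of other cell types named singly (Ppbp, Gp9, Itga2b, Pf4, Itgb3, Hba-a1 and Chil3) fall outside this rule and were chosen after their values were seen. Of the genes in the lists, 4 are absent from the table, as are 4 markers. Levels are CPM of a sum without length correction and are compared within a gene. Gene positions are from GENCODE vM21 and promoters from RefSeq (GRCm38.p6).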

Additional observations from a re-analysis of the deposited data

Results flagged for a closer look

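In 13 of 94 groups of 4 lung sums or 7 blood sums, the highest sum stood further from the next one than Dixon's 95% critical value allows for that number of sums. Chance flags about 1 in 20 groups where values are normally distributed and groups are independent. These were CPM without a log transformation, and the groups share the same sums, so 13 of 94 cannot be read against that rate.

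In the lung sum of replicate 3, the highest values set apart were Atf3 at 420.3 CPM, Ifit1 at 75.6 CPM, Vegfa at 22.9 CPM and H2-T23 at 96.4 CPM. That sum holds 6 cells, and 1 of them carried 77.7% of its Atf3 counts and 99.3% of its Ifit1 counts. In the lung sum of replicate 5, Cxcl1 was set apart at 53.1 CPM, with 88.5% of the counts in 1 cell.

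In the blood sum of replicate 9, Atf3 at 111 CPM, Ccn1 at 326 CPM, Fos at 600.2 CPM, Cd74 at 1664 CPM, H2-Aa at 551 CPM and H2-T23 at 80.5 CPM were set apart. B-cell markers summed to 932 CPM there, and their part in these values was not tested. Syne2 was set apart at 337 CPM in the blood sum of replicate 5, and Hmox1 at 385 CPM in that of replicate 6.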

How the results depend on the processing

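The count of genes called, 0 with edgeR and the sample as a block, was 338 with DESeq2, 4 with at least 1 cell per tissue, 2 with no filter on low counts, 1 with cells thinned to 500000 counts and 1 with no replicate block, and it was 0 under the other 15 alternatives. The cause was not tested. Of 47 genes compared under up to 20 alternatives (18 or 19 for Ifit1, Cxcl1, Hspa1a, Hspa1b, Isg15, H2-Aa and Vegfa, which some fits did not test), 39 kept their direction in all that were run. Values of the other direction were -2.10 for Isg15 in CTC cells alone; -1.37 for Cat, -0.30 for Sparc and -0.28 for Ndufb3 in DP cells alone; 0.33 for Ldha, -0.37 for Cat, -0.48 for Sparc and -0.16 for Cd9 with at least 1 cell per tissue; -0.089 for Cat with class as a further term; -0.060 for Cat, -0.23 for Sparc and -0.036 for Ndufb3 on the mean over cells; and 0.36 for Ldha and -0.31 for Cat at a threshold of 1000 CPM. Leaving out 1 sample at a time gave -5.37 to 0.061 for Cd74, -0.69 to 0.11 for Slc2a1 and -0.33 to 0.29 for Ldha. The CTC fit and the samples left out for depth were chosen after seeing the data. The median of all genes was -0.08 with all cells, -0.695 in DP cells alone, -0.764 at a threshold of 1000 CPM, -1.07 with at least 1 cell per tissue and -0.54 on the mean over cells, so differences there are relative to it. Of 380 medians of the lists, 308 moved by less than the spread between pairs and 72 by more.

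For median counts per cell, lung minus blood, the difference of 0.46 M counts was -9.28 in DP cells alone and -7.82 at 1000 CPM, and -6.15 to 11.5 with 1 sample left out. For median detected genes per cell, lung minus blood, the difference of -217 was 50.8 at 20000 CPM and -716 to 83.8 with 1 sample left out. Lung of replicate 3, with 6 cells, limits every paired value.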

Other observations

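The B16F10 control, 22 cells in 1 sample with no replicate, had 0 CPM of Mki67, 3.54 CPM of Plk1, 4.22 CPM of Aurkb and 27.5 CPM of Mcm3. The same cells had 496 CPM of Hmox1 and 244 CPM of Sox10. The single lung cell of replicate 2 that met the rule had 2839 CPM of Rpl32, 6.62 CPM of Mki67 and 3.21 CPM of Mitf.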
